A study of Mus with 4 samples.

Results

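E2f1 to E2f6 encode E2F transcription factors, and the TBX3 ChIP-Seq signal was examined in and around these 6 of the 21887 protein-coding genes in the RefSeq annotation of GRCm38. They were taken by name as members of a gene family, with earlier results of these data known, and were set against E2f7 and E2f8, the family members that the study chose as TBX3 targets from these libraries, so that the values of this pair are a description. The signal was read within 1 kb of each gene end, inside the gene between these end windows, and from 1 to 10 kb outside each end.

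Mouse primary hepatocytes in culture overexpressed HA-tagged TBX3 from the construct pT2-SVNeo-EF1-eGFP-P2A-Tbx3-HA, in which an EF1 promoter drives eGFP and Tbx3-HA and a neomycin cassette allows selection. The 2 TBX3 ChIP libraries were made with an anti-HA antibody, so they report the tagged protein and not the endogenous one, and the 2 Input libraries came from sonicated chromatin of cells with the same genotype. No library from cells without the tag was analysed here, and the age of the mice is not given in the labels. The values come from a single track that combines ChIP and Input and gives nothing per library, so they carry no replicate error and no difference could be tested.

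E2F proteins bind DNA upstream of genes for DNA replication and cell division. In textbook accounts E2F1, E2F2 and E2F3 are activators held in check by the retinoblastoma protein, E2F4 and E2F5 repress together with the pocket proteins p107 and p130, and E2F6 represses without pocket proteins, in a complex with Polycomb group members. These 6 proteins bind DNA as dimers with a DP partner. E2F7 and E2F8, called atypical, bind without DP, repress E2F target genes and promote polyploidy in hepatocytes.

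No TBX3 region was called in, or within 10 kb of, any of E2f1 to E2f6. Few genes had one, 0.311% of protein-coding genes at their ends, 0.171% inside and 0.219% from 1 to 10 kb outside, so 0 of 6 is at the background. A region here is a run of bases that score 5 or more, with gaps of up to 30 bp joined, spanning at least 200 bp. The score is the −log10 p-value of the ChIP reads piled over a base against an expected number. That number is the higher of a genome-wide level and the level in Input nearby. The highest score in any of the 30 windows of the 6 genes was 3.65, while E2f7 reached 22.8 and E2f8 15.5. The track does not mark read pairs. Counting each pair once was therefore approximated, here and below, by dividing the inferred reads and the expected level by 2. Reads at single positions were rounded down. With pairs counted once in this way, the same highest scores were 2.09, 11.8 and 8.14. Across the 285027 bases in these windows, 702 bases, or 0.246%, reached a score of 3, and none reached 5. Taken gene by gene with the 10 kb flanks, this share had a median of 0.268% over all protein-coding genes. E2f3 at 0.365% and E2f5 at 0.281% lay above it. E2f6 at 0.2595%, E2f4 at 0.1985%, E2f2 at 0.0799% and E2f1 at 0.0721% lay below. In the same windows of E2f7 and E2f8, 1.80% of the 97591 bases reached 3. The nearest called region was 3661428 bp from E2f2 and 61524171 bp from E2f6, with the other members in between.

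Each score stands for a whole number of reads. At the genome-wide expected level of 2.43 reads, 5 reads over a base gave a score of 1.42, 6 reads 1.90, 7 reads 2.44, 8 reads 3.02, 9 reads 3.65, 10 reads 4.31 and 11 reads 5.01. The gene-end score is the highest score in the windows at both ends of a gene, and its median over all protein-coding genes was 2.44. E2f5 had the highest gene-end score of the 6, at 9 reads, followed by E2f3 at 8 reads, E2f1 at 7, E2f2 at 6, and E2f4 and E2f6 at 5 each. Neighbours in this order differed by at most 1 read, and the exact 95% Poisson interval of 9 reads, from 4.12 to 17.1, overlapped that of 5 reads, from 1.62 to 11.7. The order therefore cannot be told apart from counting error. These intervals cover counting error only, they are too narrow where the mates of a read pair were counted as separate reads, and they belong to positions picked as the highest of their window.

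**Figure D1:**
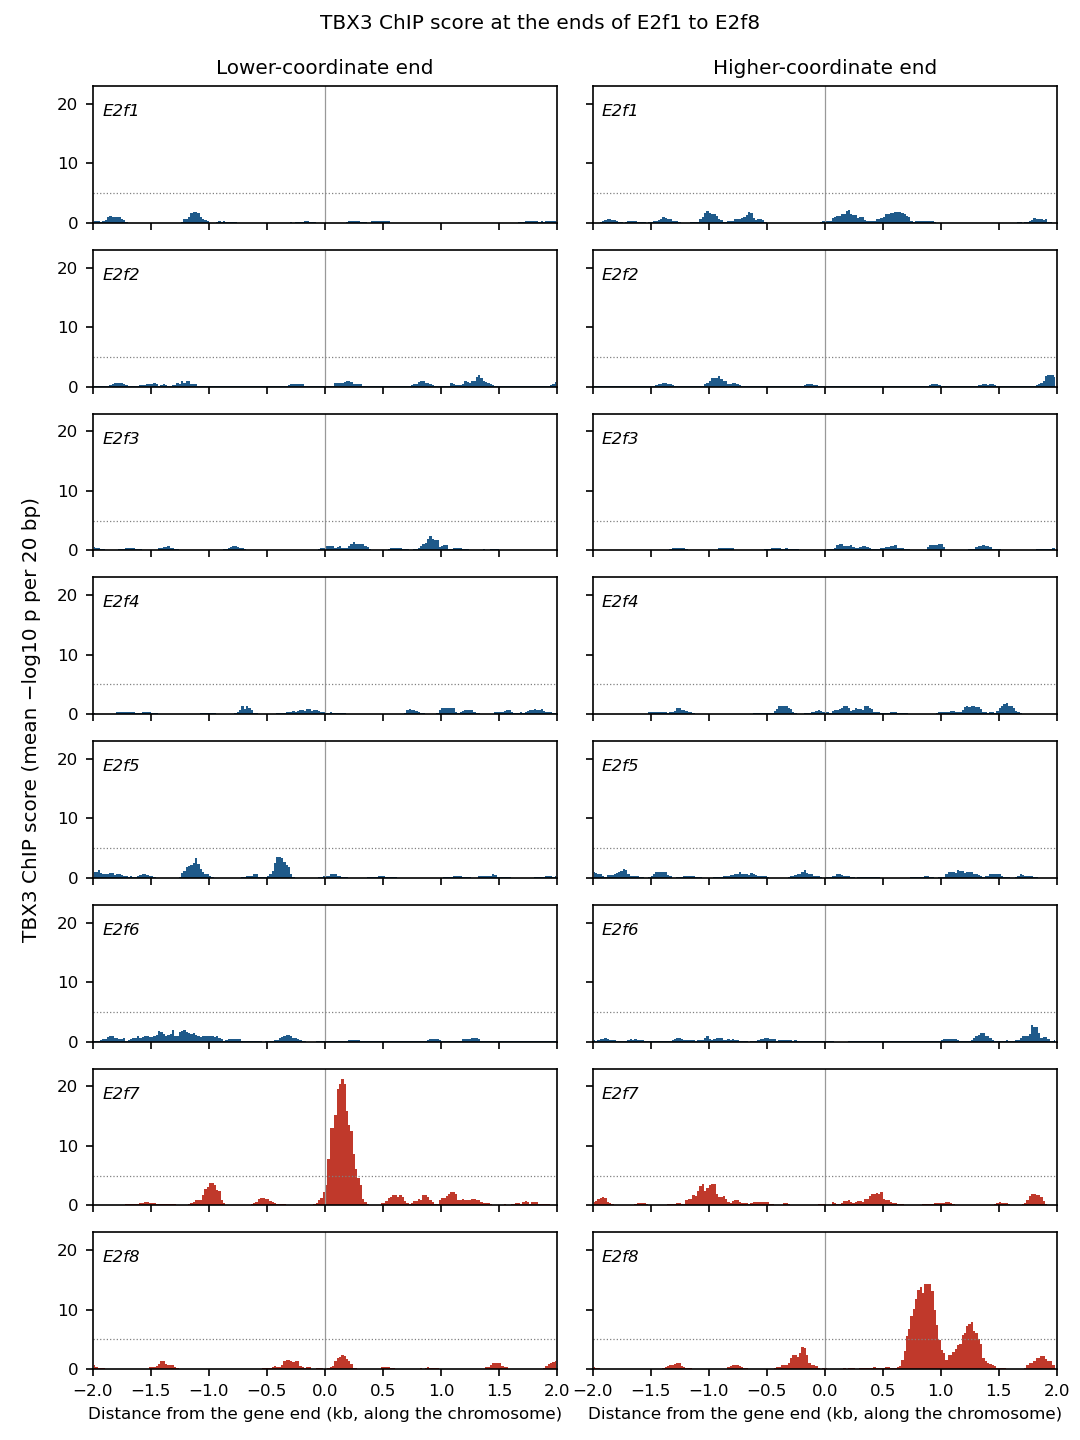
TBX3 ChIP score (mean −log10 p in bins of 20 bp) within 2 kb of the lower-coordinate end (left) and the higher-coordinate end (right) of each gene, with distance measured along the chromosome and the dotted line at a score of 5. E2f1 to E2f6 (blue) stayed under the line at both ends, whereas E2f7 (red) crossed it just inside its lower-coordinate end and E2f8 (red) beyond its higher-coordinate end.

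Among the activator genes, E2f1 (gene 13555, chromosome 2, 154559400 to 154569892) had the most uneven reads between its ends. At the lower-coordinate end no base had more than 2 reads, for a score of 0.357, and the 8.0 reads in this window were 0.317 times the mean of chromosome 2 (95% interval 0.137 to 0.624). Of all 43774 end windows of protein-coding genes, 3.79% had as few reads for their chromosome. This window also holds an end of Necab3, which overlaps E2f1 there. At the higher-coordinate end the score reached 2.44, from 7 reads, 202 bp outside the gene. The 34.2 reads in that window were 1.35 times the chromosome mean, with an interval of 0.937 to 1.89 that includes 1. This was the most reads for its chromosome of any member end window, and 26.8% of protein-coding genes had an end with as many.

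E2f2 (gene 242705, chromosome 4, 136172274 to 136196057) scored 0.999 at its lower-coordinate end and 1.90 at its higher-coordinate end. The windows held 0.700 and 0.672 times the reads of an average stretch of chromosome 4, with upper bounds of 1.24 and 1.21, and 62.0% and 65.9% of their bases had no read at all. Chromosome 4 had the lowest depth of the 6 chromosomes, 0.703 times the median autosome. E2f3 (gene 13557, chromosome 13, 29906575 to 29986064) is the longest member, at 79490 bp. It scored 3.02 at 8 reads inside its lower-coordinate end window, where only 4 bases, 909 bp into the gene, reached that value, and 0.999 at its higher-coordinate end. The activator genes thus had gene-end scores from 1.90 to 3.02, on both sides of the median of all genes.

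Of the genes for the repressors that act with pocket proteins, E2f4 (gene 104394, chromosome 8, 105297663 to 105305370) is the shortest member, at 7708 bp, and has ends of other genes close by on both sides. It scored 1.37 at the lower-coordinate end and 1.42 at the higher-coordinate end, with 5 reads at each. The position at the lower end lies inside Exoc3l, 16 bp from an end of that gene, and Elmo3 has an end 456 bp from the position at the higher end. The end windows of E2f4 held 0.987 and 0.963 times the chromosome mean, so neither had an excess of reads.

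E2f5 (gene 13559, chromosome 3, 14578602 to 14606309) carried the highest gene-end score of the 6, 3.65, which lies 374 bp outside its lower-coordinate end. The highest value covered 3 bases, and 71 bases in a row reached 3. Its window still held 0.933 times the chromosome mean (95% interval 0.547 to 1.49), so reads gathered at one spot without an excess over the window. The higher-coordinate end, where E2f5 overlaps Rbis, scored 1.42. Of all protein-coding genes, 3225, or 14.7%, had a gene-end score as high as E2f5, but by the mean score of the window 64.7% did.

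E2f6 (gene 50496, chromosome 12, 16810909 to 16826752), whose protein represses without pocket proteins, had one of the lowest gene-end scores. It scored 1.42 at its lower-coordinate end and 0.961 at its higher-coordinate end. The higher-coordinate end held 0.523 times the reads of an average stretch of chromosome 12 (95% interval 0.260 to 0.940). With pairs counted once the interval widened to 0.180 to 1.18, which includes 1.

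At a score of at least 5, 0 of the 6 genes were called at their ends, against 3.6% of protein-coding genes, so the count is close to the background. At 5.46, the score at an adjusted p of 0.05 over all positions of the track, the count was again 0, against 2.26%. At a score of at least 3, E2f3 and E2f5 passed, which is 2 of 6, against 29.1% of protein-coding genes. This count was 1 with windows of 500 bp, where E2f3 scored 1.42 and 17.7% of protein-coding genes reached 3. It was 3 with windows of 2 kb, where E2f6 scored 3.02 and 45.4% of protein-coding genes reached 3. With pairs counted once it was 0, against 2.29%. With the expected level scaled to chromosome depth, where E2f3 scored 2.87, it was 1, against 21.5%. That scaling raises the expected level only on chromosomes deeper than the median, so it can lower a score but not raise it. The share of genes with a gene-end score as high was 50.5% for E2f1, 74.5% for E2f2, 29.0% for E2f3 and 91.1% for E2f4 and E2f6. The corresponding shares were 0.0548% for E2f7 and 0.119% for E2f8. By the mean score of the window, the shares were 11.3% for E2f1, 94.5% for E2f2, 57.8% for E2f3, 60.3% for E2f4 and 92.2% for E2f6. They were 0.123% for E2f7 and 0.215% for E2f8 by that measure. Taking the 12 end windows one by one, their median score was 1.42, against 1.90 over all end windows, and 4 of 12 were at or above the latter. Of the 12 windows, 10 held fewer reads than the chromosome mean, against 55.3% of all end windows. These shares describe the track, since genes are not replicates.

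**Figure D2:**
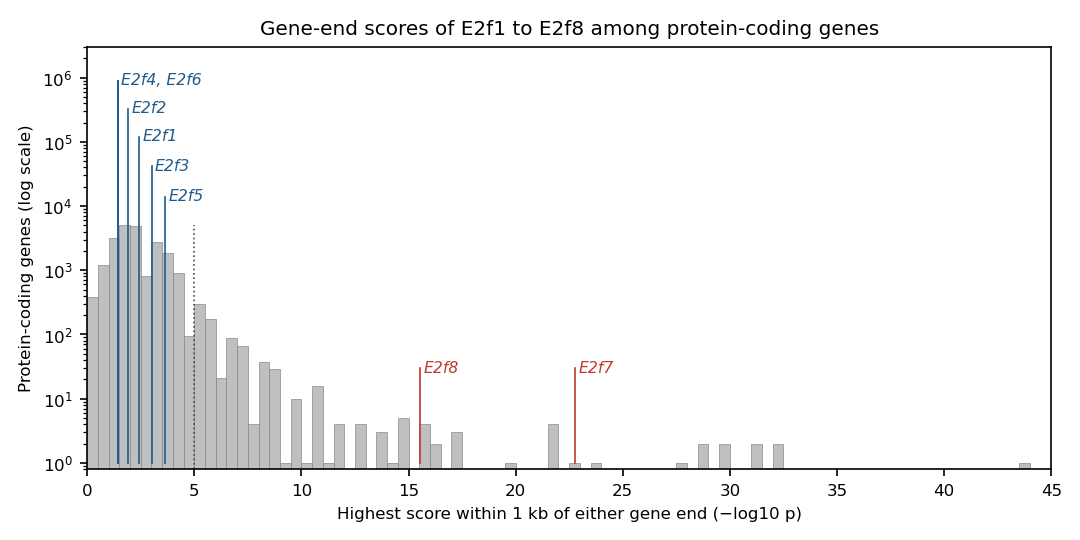
Number of protein-coding genes (log axis) by highest score within 1 kb of either gene end (−log10 p, bins of 0.5), with vertical lines at E2f1 to E2f6 (blue), E2f7 and E2f8 (red) and a dotted line at a score of 5. E2f1 to E2f6 lie between 1.42 and 3.65 in the bulk of the genes, while E2f8 at 15.5 and E2f7 at 22.8 lie in the sparse tail.

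Inside the genes, too, no base reached 5, although E2f2, E2f3, E2f4 and E2f6 scored higher there than at their ends. Leaving out the end windows, the highest score was 2.44 in E2f1, 3.02 in E2f2, 3.65 in E2f3, 1.84 in E2f4, 3.02 in E2f5 and 3.65 in E2f6. A score of at least 3 was reached in 4 of the 6, against 64.3% of the 19301 protein-coding genes long enough to have such an inside, and a score of at least 5 in 0 of 6, against 14.1%. The highest score grows with the length searched, so the share of bases is more even-handed. In E2f3, the longest, 0.370% of the inside bases reached 3, in E2f6 0.289%, in E2f2 0.161% and in E2f5 0.0740%, while E2f1 and E2f4 had none. The median over protein-coding genes was 0.142%, and E2f7 with 0.456% and E2f8 with 0.638% lay above each member. Read totals for the chromosome did not follow this order. The inside of E2f7 held 1.08 times its chromosome mean (95% interval 0.998 to 1.16) and that of E2f8 0.793 times (0.654 to 0.954). The insides of the members ranged from 0.856 times in E2f1 to 1.15 times in E2f5. The longest run at or above 3 was 82 bp, inside E2f3, compared with 43 bp inside E2f7 and 71 bp inside E2f8. The annotation used here gives genes without exons, so exonic and intronic positions were not told apart.

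The highest scores inside E2f7 and E2f8, away from their ends, were 4.31 in both, from 10 reads, and 27.5% of protein-coding genes had a score as high. Inside the genes, E2f7 and E2f8 thus lay 1 read above E2f3 and E2f6. At the gene ends they lay 22 and 14 reads above E2f5. These reads are not adjusted for chromosome depth. With windows of 500 bp, which leave out the site of E2f8, its gene-end score was 3.65, equal to that of E2f5.

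Outside the genes, from 1 to 10 kb beyond either end, the highest score was 3.55 at E2f1, 2.44 at E2f2, 3.65 at E2f3, 3.02 at E2f4, 3.65 at E2f5 and 3.65 at E2f6. Of the 6 genes, 5 reached 3, against 71.3% of protein-coding genes, and 0 reached 5, against 8.4%. The position beside E2f1 lies inside Necab3, and that beside E2f4 lies 734 bp from an end of Lrrc29 and 983 bp from one of Elmo3. The position beside E2f5, 1110 bp from its lower-coordinate end, had 9 reads, like the one inside the end window. E2f8 reached 8.13 in this range, from 15 reads, and 0.539% of protein-coding genes had a score as high. That position lies 1249 bp from its higher-coordinate end, near the summit of its called region, 831 bp from the same end. With a cutoff of 3, or with a minimum length of 100 bp, E2f8 had 2 called regions instead of 1. Whether the position and the summit are separate sites was not tested. E2f7 reached 4.31.

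**Figure D3:**
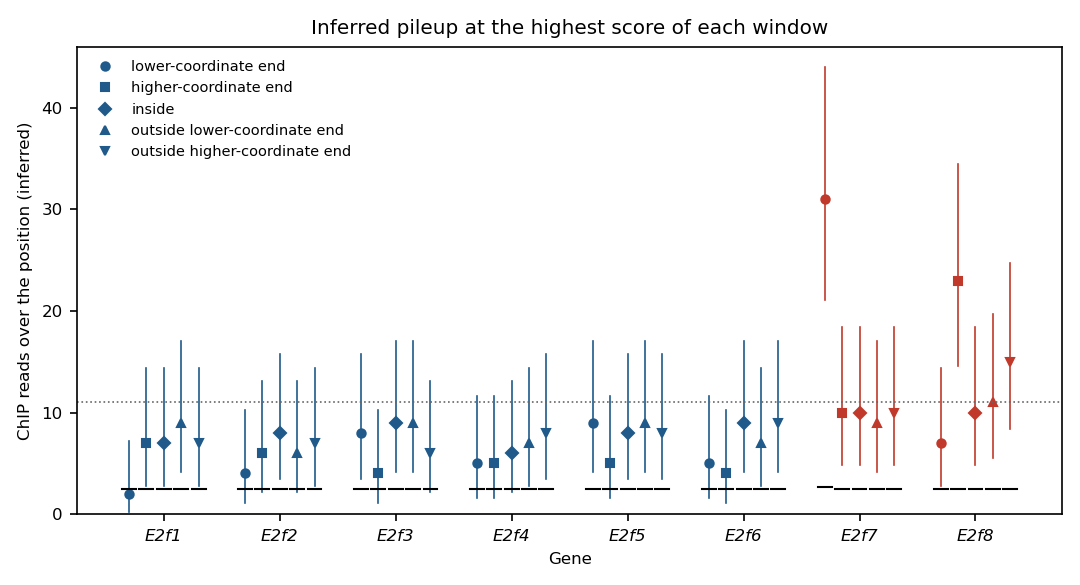
Inferred ChIP reads over the position of the highest score in each of the 5 windows of each gene, with exact 95% Poisson intervals (vertical lines). Black dashes mark the expected level, the higher of the genome-wide level and the level in Input. The dotted line marks the 11 reads needed for a score of 5 at the genome-wide level. E2f1 to E2f6 (blue) had 2 to 9 reads, E2f7 (red) had 31 at its lower-coordinate end and E2f8 (red) 23 at its higher-coordinate end.

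In reads, the highest gene-end position of E2f7 had 31 (95% interval 21.1 to 44.0) against 2.69 expected, and that of E2f8 had 23 (14.6 to 34.5) against 2.43. The interval of E2f7 did not overlap that of any member. Few genes scored as high at their ends, 0.0548% of protein-coding genes for E2f7 and 0.119% for E2f8. Most genes thus lay below the pair, like the members, and overlaps of intervals were not counted over all genes. E2f7 and E2f8 were chosen from these libraries, so how far they stand apart is a description and not a test. The interval of E2f8 overlapped those of 12 of the 30 member windows, the ones with 8 or 9 reads, E2f5 at its lower-coordinate end among them. E2f7 lies on chromosome 10, which had 1.41 times the depth of the median autosome, and with its expected level raised to match, its score was 19.7. Read totals per window, set against the chromosome, do not carry this difference in depth. They were 2.36 times the chromosome mean at the lower-coordinate end of E2f7 (95% interval 1.86 to 2.95) and 2.76 times at the higher-coordinate end of E2f8 (2.10 to 3.57). The interval of E2f8 lay above those of all 12 member end windows and that of E2f7 above 11, the exception being the higher-coordinate end of E2f1 with its upper bound of 1.89. With pairs counted once, the interval of E2f7 lay above 7 of the 12 and that of E2f8 above 10. Of all protein-coding genes, 1.57% had an end with as many reads for their chromosome as E2f7, and 0.891% as E2f8. Most genes thus lay under this pair, like the members. How many of all end windows had an interval below the pair was not counted. The counts of member windows are therefore a description and not a trait particular to E2f1 to E2f6.

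**Figure D4:**
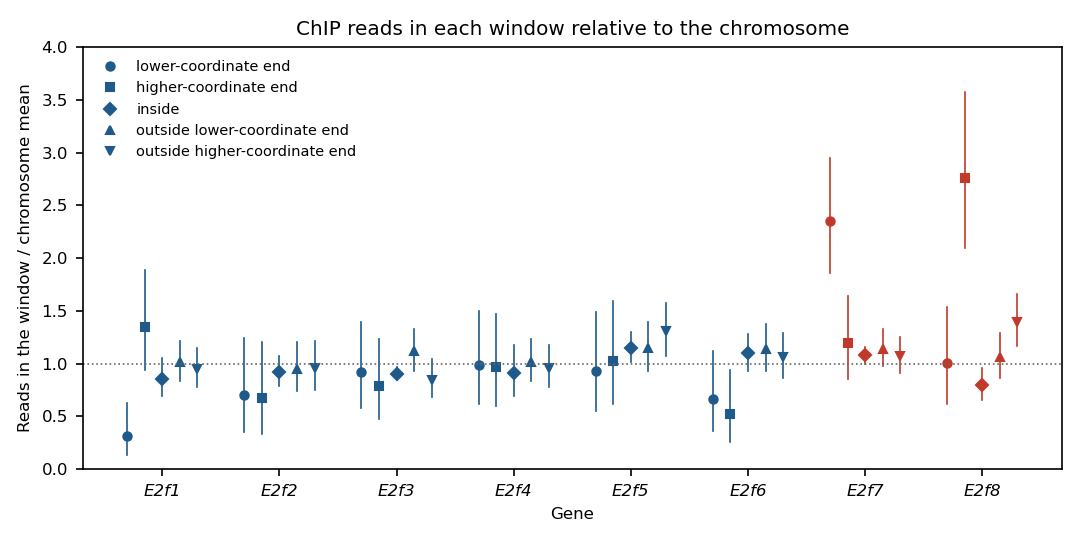
Inferred ChIP reads in each of the 5 windows of each gene, divided by the mean of the same length on its chromosome, with 95% Poisson intervals (vertical lines) and a dotted line at 1. The 30 windows of E2f1 to E2f6 (blue) lie between 0.317 and 1.35, and the bound ends of E2f7 and E2f8 (red) at 2.36 and 2.76.

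Of the 30 windows of E2f1 to E2f6, 2 had an interval above 1 and 3 had an interval below 1. Of all 106842 such windows of protein-coding genes, 13.2% were above and 15.1% below, so the members had no more of either than the background. The higher windows were the inside of E2f5, at 1.15 (95% interval 1.02 to 1.30), and its outer flank on the higher-coordinate side, at 1.31 (1.07 to 1.58). The lower windows were the lower-coordinate end of E2f1, the higher-coordinate end of E2f6 and the inside of E2f3, at 0.900 (0.840 to 0.963). With pairs counted once, none of the higher and 2 of the lower ones remained, those of E2f1 and E2f3, against 6.76% and 6.5% of all windows.

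Depth set what could be seen at each gene. A score of 5 needed at least 11 reads over a base on every chromosome, because the expected level does not fall below the genome-wide one, and this was 5.81 times the chromosome mean at E2f1, 9.07 at E2f2, 6.06 at E2f3, 6.61 at E2f4, 7.86 at E2f5 and 7.08 at E2f6. The highest pileup in each gene and its flanks was 4.75 times the chromosome mean at E2f1, 6.60 at E2f2, 4.96 at E2f3, 4.81 at E2f4, 6.43 at E2f5 and 5.80 at E2f6. At E2f7 it was 12.7 times and at E2f8 14.7 times. A pileup 12.7 times the mean of its chromosome would give E2f2, on the shallowest chromosome, 15.4 reads and a score of 8.13, and the other members more. At the genome-wide expected level and with each read counted, a pileup of the multiple of E2f7 or E2f8 would pass 5 at each of the 6 genes. With pairs counted once, the multiple of E2f7 would give E2f2 a score of 4.39, under 5, and that of E2f8 would give it 5.26, while at the other 5 genes both would pass 5. These scores all assume the genome-wide expected level, and would be lower where Input raised it. Whether mates were counted separately in the track is not stated. Below the multiples needed for 5, a pileup over a base could not pass the cutoff used here. A called region also has to span 200 bp, joined gaps included.

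The genes that E2F proteins bind with or act on were read in the same way. Of 5 genes for DP partners and pocket proteins, 0 had a gene-end score of at least 5 and 2 of 5 reached 3, with a median of 2.44. Over all protein-coding genes, 3.6% reached 5 and 29.1% reached 3, and the median was 2.44 as well. The highest were Tfdp1, which encodes the partner DP1, and Rbl2, which encodes p130, both at 3.02, then Rbl1, which encodes p107, at 2.44. The lowest was Tfdp2, a further DP partner, at 1.42. Of 9 genes for the repressor complex of E2F6, 0 reached 5 and 4 of 9 reached 3, with a median of 1.90. Cbx3, for a heterochromatin protein, scored 3.65, and Rybp and Yaf2, for related subunits of Polycomb complexes, scored 3.55 each, while L3mbtl2, for a chromatin reader of the complex, was lowest at 1.42.

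Among 27 E2F target genes, 2 reached 5, or 7.41%, beside 3.6% of all protein-coding genes, and 11 reached 3, or 40.7%, beside 29.1%, with a median of 2.44. The shares of the lists were not tested. These genes were Mcm2, a subunit of the replicative helicase, and Brca1, which acts in DNA repair. Each had a score of 5.01 from 11 reads, the first step past 5, and neither had a called region or reached 5.46. Their scores were 2.79 with pairs counted once and 4.81 and 4.90 with the expected level scaled to chromosome depth. None of the genes in these lists approached the scores of E2f7 and E2f8.

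**Figure D5:**
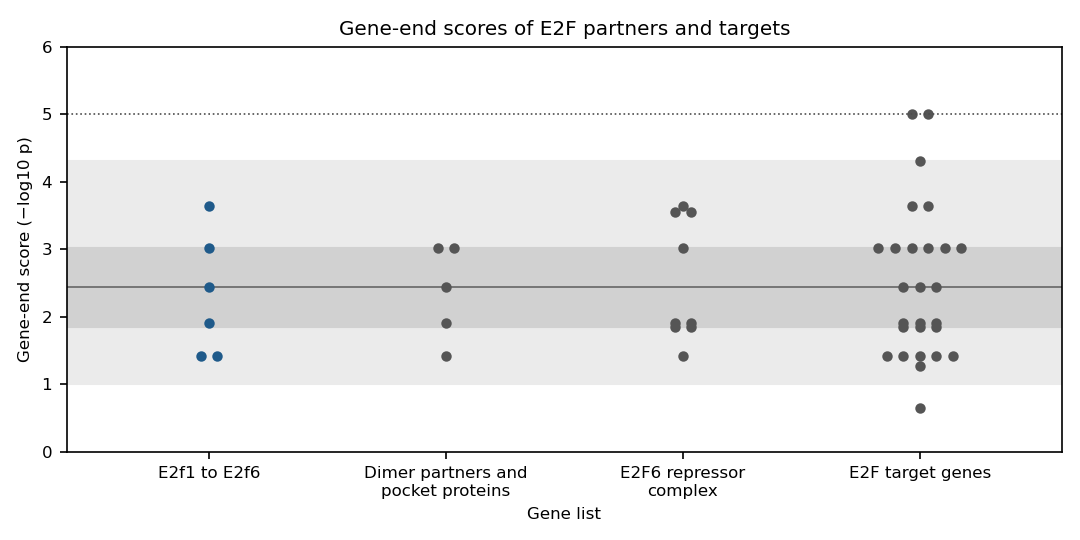
Gene-end score (−log10 p) of each gene of E2f1 to E2f6 (blue) and of 3 lists of genes that E2F proteins bind with or act on (grey), with the median over all protein-coding genes (line), their middle range from percentile 25 to 75 (dark band) and from percentile 5 to 95 (light band), and a dotted line at a score of 5. E2f1 to E2f6 lie between 1.42 and 3.65, and 2 E2F target genes lie at 5.01.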

How the data were processed

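TBX3 ChIP-Seq libraries (2) and Input libraries (2) were made by the authors from cultured mouse hepatocytes. Per the labels and the methods, reads were mapped with Bowtie2 to mm10, sorted with SAMtools and compared with MACS2. The authors deposited 1 track, in which each value is the −log10 p-value of the ChIP pileup against Input. Whether replicates were pooled is not given in the sources used here. The track had 0 further columns holding values of single samples.

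The deposited −log10 values were cut at a score of 5 to call regions. A MACS2 score follows from a whole read count and a Poisson mean, the higher of a genome-wide level and the level in Input. The count and the mean were therefore solved for along each chromosome, with reads extended to 150 bp. A match was found at 99.9986% of bases (98.3% of those scoring at least 5). The inferred depth is 30055031 ChIP reads over the libraries behind the track, and the depth of each library is unknown. The inference was tested on data simulated under the same score model and the same 150 bp extension. That test therefore cannot check the extension itself. Genes came from RefSeq GRCm38.p6, whose table here holds no strand, exons or sequence, so both gene ends were used and no promoter motif, sequence or annotated start was read. Intervals at single positions are exact 95% Poisson intervals. Those of window totals use the same formula on inferred reads that need not be whole numbers, so they are approximate.

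Members and lists were chosen with earlier results of these data known. A gene of the list of E2F targets is not reported here and was left out of its counts. The genes named are E2f1 to E2f8, list genes with a score of at least 5 and otherwise the 3 highest and the lowest of each list, and genes with an end within 1 kb of a member's highest position. Alternatives covered cutoff, length, gap, window, gene set, read pairs and chromosome depth. Scripts ran in Python 3.11.15 with scipy 1.17.1 for intervals, numba 0.67.0 for the inference, matplotlib 3.10.9 for plots, and pandas 2.3.3, pyarrow 21.0.0 and numpy 2.4.6.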

Additional observations from a re-analysis of the deposited data

How the results depend on the processing

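No paired analysis was possible because the track holds no value for any single library, and for the same reason no replicate could be left out. The number of regions called at E2f1 to E2f6 was 0 under each of the 7 alternatives for cutoff, minimum length, gap, read pairs and chromosome depth. Since no base of theirs reached 5, only the cutoff of 3 could have changed this count. E2f7 had a called region under all 7, and E2f8 under all but the cutoff of 10. With the cutoff of 3 and with the minimum length of 100 bp, E2f8 had 2. The highest gene-end score among the 6 genes, 3.65, was unchanged with windows of 500 bp and 2 kb, and was 2.09 with pairs counted once. Scaling to chromosome depth could not move it, since it raises the expected level only on chromosomes deeper than the median and E2f5 lies on one at 0.811 times. The share of protein-coding genes with a score as high, 14.7%, became 9.06% with windows of 500 bp, 23.9% with windows of 2 kb and 12.3% among all annotated genes, since the score of E2f5 stayed the same while more or fewer bases and other genes were compared. It became 11.3% with the mean score and, in an alternative chosen after seeing the data, 26.8% with the mean pileup over that of the chromosome. In both, E2f1 took the place of E2f5 as the highest member. Gene-end scores of single members also moved with the window, for example for E2f3, from 3.02 to 1.42 with windows of 500 bp, and E2f6, from 1.42 to 3.02 with windows of 2 kb. With windows of 500 bp E2f8 scored 3.65, equal to E2f5, because its site lies 831 bp outside the gene. The alternatives on the annotated start were not run, since the gene table used here has no strand, and neither was the search for promoter motifs.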
